A study of Mus musculus with 19 samples.

Results

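The FGF/ERK pathway output genes are a list of 10 genes, chosen by symbol from the 23420 genes counted in each of 19 mouse RNA-seq libraries. They are the ligand gene Fgf4, the receptor gene Fgfr1, the feedback inhibitor genes Dusp6, Spry2, Spry4, Spred1 and Spred2, and the target transcription factor genes Etv4, Etv5 and Egr1. All 10 were found, and together they received 1650 read pairs over the 19 libraries.

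The libraries came from induced pluripotent stem cells (iPSC), embryonic stem cells (ESC) and epiblast stem cells (EpiSC). The iPSC were made from embryonic fibroblasts of the 129S1/SvImJ (129), NOD/ShiLtJ (NOD) and WSB/EiJ (WSB) strains with a lentivirus carrying the reprogramming factors, which was not removed. The study asked whether iPSC of NOD and WSB, strains the study calls non-permissive, stand closer to ESC or to EpiSC. Each library was 1 line or clone, and 2 of the 129 iPSC clones were sequenced in both media described below. Comparisons that hold both libraries of a clone thus do not measure the spread between separate lines alone.

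ESC/LIF is a serum medium with the cytokine LIF. 2iS is the same medium with an inhibitor of GSK3B and an inhibitor of MEK, the kinase directly above ERK. The 129 iPSC were 2 male clones (1 and 17) and 2 female clones (5 and 8) in ESC/LIF at passages 17 to 21. Clones 1 and 17 were sequenced again at passages 31 and 30, after a move to 2iS, so medium and passage cannot be told apart in them. In 2iS from early in reprogramming were 2 female and 2 male NOD clones and 2 female and 2 male WSB clones, at passages 16 to 26. The ESC, from another laboratory, were 1 male line each of NOD, WSB and 129 at passage 6, kept in serum and LIF with GSK3B and MEK inhibitors. The EpiSC, from other laboratories again, were 1 male NOD line at passage 38 and 1 male 129/Sv line at passage 16, kept in EpiSC conditions that the sources used here do not spell out. Only the iPSC are described as depleted of feeder fibroblasts before sequencing.

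The libraries held 92996 to 567432 read pairs on genes, which is 1.15% to 1.74% of the uniquely aligned pairs in 17 libraries and 5.59% and 5.62% in the 2 NOD male iPSC libraries. The strand setting of the counting is not given in the sources used here, and in these stranded libraries it decides what a count means. Genes whose exons overlap a gene on the opposite strand were 24.4% of the genes matched to the annotation but held 57.8% of the read pairs, among them 17 of the 20 genes with the most read pairs, and Gapdh, a highly expressed housekeeping gene, had 0 to 27 read pairs per library. If the pairs were counted on the strand opposite to the transcripts, the values below are pairs from that opposite strand and not the level of the RNA. This was not tested on reads, and it holds for every level in the report. Levels are given in CPM (counts per 1e+06 read pairs on genes, with TMM scaling), and 1 library's limit for a gene with a count of 0 (3 counts) lay between 3.54 and 34.2 CPM. Intervals cover counting error only. A limit given as "at least" sets the group at 0 to 3 counts and takes the other group's count as exact. It leaves out the counting error of that other group, so it lies above a full lower bound. The sample titles and the other labels disagree on strain, sex or cell type. Titles were followed, since read pairs on 4 genes of chromosome Y went against the title's sex in 0 libraries and against the sex in the other labels in 10. The 2 NOD male libraries were kept out of the comparisons of cell state, medium and strain. Naive pluripotency markers summed to 990 to 1736 CPM in ESC, to 1263 to 2272 CPM in the 12 other iPSC and to 35.8 to 68.6 CPM in EpiSC. The 15 markers of the primed state did not separate EpiSC from ESC by their sum, at 409 CPM in the NOD and 984 CPM in the 129 EpiSC library, 347 to 765 CPM in ESC and 132 to 428 CPM in the 12 iPSC. Fgf5, Pou3f1, T, Foxa2 and Cer1 were at 0 in every ESC library. Pou3f1 had 4 read pairs in the NOD and 5 in the 129 EpiSC library. Fgf5, T, Foxa2 and Cer1 had 17, 5, 3 and 7 in the 129 and 0 in the NOD EpiSC library. Otx2, Lefty1, Lefty2 and Nodal had more read pairs in the ESC together than in the EpiSC, Lefty2 with 92 against 4. Dnmt3b, Fst, Sox3, Eomes and Cldn6 had more in the EpiSC, and Lhx5 was at 0 in both. Of 10 extraembryonic endoderm markers Gata4, Sox7, Pdgfra and Afp were at 0 in ESC and EpiSC. Gata6, Sox17 and Dab2 had 1, 2 and 2 read pairs in the 129 EpiSC library and 0 in the NOD EpiSC library. Dab2 also had 1 in the 129 ESC library. Lamb1, Col4a1 and Sparc held most of the list's counts.

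Fibroblast growth factors bind receptor tyrosine kinases and act through RAS, RAF and MEK on the kinase ERK. Active ERK induces immediate-early and ETS-family transcription factors, and also induces its own inhibitors, the Sprouty and SPRED proteins and the phosphatase DUSP6, so the RNA of these genes is widely used as a readout of the pathway. In naive mouse pluripotent cells FGF4 is the main ligand that drives ERK toward exit from the naive state, which is why a MEK inhibitor is used to hold that state.

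Promoter windows from RefSeq (GRCm38.p6, 250 bases before to 50 after a transcription start) matched 6 of the 10 genes by symbol. The windows of Fgf4 and Etv5 are shown because these genes differed between cell states, and that of Spry2 because it alone among the 6 genes held the ETS-type motif CCGGAA. Capitals mark CCGGAA or the GC box GGGCGG, searched on both strands, and no marked matches overlap. The Fgf4 window is chr7:144861136-144861435 on the plus strand, the Etv5 window chr16:22439521-22439820 on the minus strand and the Spry2 window chr14:105896770-105897069 on the minus strand.
Fgf4: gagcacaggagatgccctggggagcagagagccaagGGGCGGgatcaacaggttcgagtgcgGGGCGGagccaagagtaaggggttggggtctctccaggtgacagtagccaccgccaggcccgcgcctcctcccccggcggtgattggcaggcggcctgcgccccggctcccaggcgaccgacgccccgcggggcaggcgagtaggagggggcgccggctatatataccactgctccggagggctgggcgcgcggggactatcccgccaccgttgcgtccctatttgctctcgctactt
Etv5: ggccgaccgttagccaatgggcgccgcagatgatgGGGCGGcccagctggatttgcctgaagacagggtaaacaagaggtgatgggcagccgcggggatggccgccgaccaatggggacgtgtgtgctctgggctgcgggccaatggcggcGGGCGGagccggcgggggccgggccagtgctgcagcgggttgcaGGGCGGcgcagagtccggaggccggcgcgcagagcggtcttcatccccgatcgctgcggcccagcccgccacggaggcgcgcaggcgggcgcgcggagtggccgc
Spry2: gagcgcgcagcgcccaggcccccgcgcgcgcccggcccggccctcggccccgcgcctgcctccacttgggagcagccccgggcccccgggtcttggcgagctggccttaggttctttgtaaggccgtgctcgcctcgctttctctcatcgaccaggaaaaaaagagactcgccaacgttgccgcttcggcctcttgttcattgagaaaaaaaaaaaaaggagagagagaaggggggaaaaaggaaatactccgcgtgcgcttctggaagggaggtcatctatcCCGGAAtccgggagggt
The Fgf4 window held 2 GC boxes, the Etv5 window shown 3, and the Spry2 window 1 ETS-type match, its leftmost base 34 bases into the transcript. Of all 32851 mouse windows of this length, 14.9% held CCGGAA and 35.7% held GGGCGG. A second Etv5 window, chr16:22438319-22438618 on the minus strand, held 0 of both motifs. A match is a string of letters here, not a measured binding site.

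Fgf4, which encodes the ligand, had the largest difference between the iPSC and the EpiSC of the 4 genes of the list that could be tested there. The gene lies on the plus strand of chromosome 7 (GRCm38, 144847367 to 144865243). It was at 0 CPM in the NOD EpiSC library and at 7.63 CPM, which is 1 read pair, in the 129 EpiSC library. In the 3 ESC libraries it stood at 63.0 CPM in NOD, 90.01 in WSB and 78.6 in 129, and in the 12 iPSC libraries at 61.1 CPM at the lowest, 97.8 at the median and 150 at the highest. Every ESC and iPSC library thus lay above both EpiSC libraries, as 22.5% of the genes tested separated iPSC from EpiSC without overlap. The fitted log2 difference of iPSC over EpiSC was 4.65 (SE 0.67, adjusted p = 2.52e-05 in edgeR's quasi-likelihood test), and that of EpiSC over ESC was -4.30 (SE 0.75, adjusted p = 0.000674 in the same test). On pooled counts, 174 in iPSC against 1 in EpiSC, the ratio was 32.7 with a 95% counting interval of 5.80 to 1300, and without the NOD EpiSC library it was 13.1 (2.33 to 522). Without the 129 EpiSC library, which held the 1 read pair, it was at least 6.53. Between iPSC and ESC the log2 difference was 0.35 (SE 0.32, adjusted p = 0.586 by edgeR).

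Fgfr1, an FGF receptor gene, overlapped among the 3 cell states. It was at 97.1 CPM in the NOD and 38.1 CPM in the 129 EpiSC library, and at 18 CPM in the NOD, 63.0 in the WSB and 39.3 in the 129 ESC library. The 12 iPSC libraries ran from 31.2 to 71.3 CPM with a median of 47.0, inside the range of the ESC and EpiSC together. Its log2 difference was -0.54 (SE 0.39) for iPSC over EpiSC and 0.26 (SE 0.39) for iPSC over ESC, with adjusted p of 0.312 and 0.762 by edgeR. Fgfr1 is the only gene of the 10 with exons that overlap a gene annotated on the opposite strand (Gm16159, 164 bases).

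**Figure D1:**
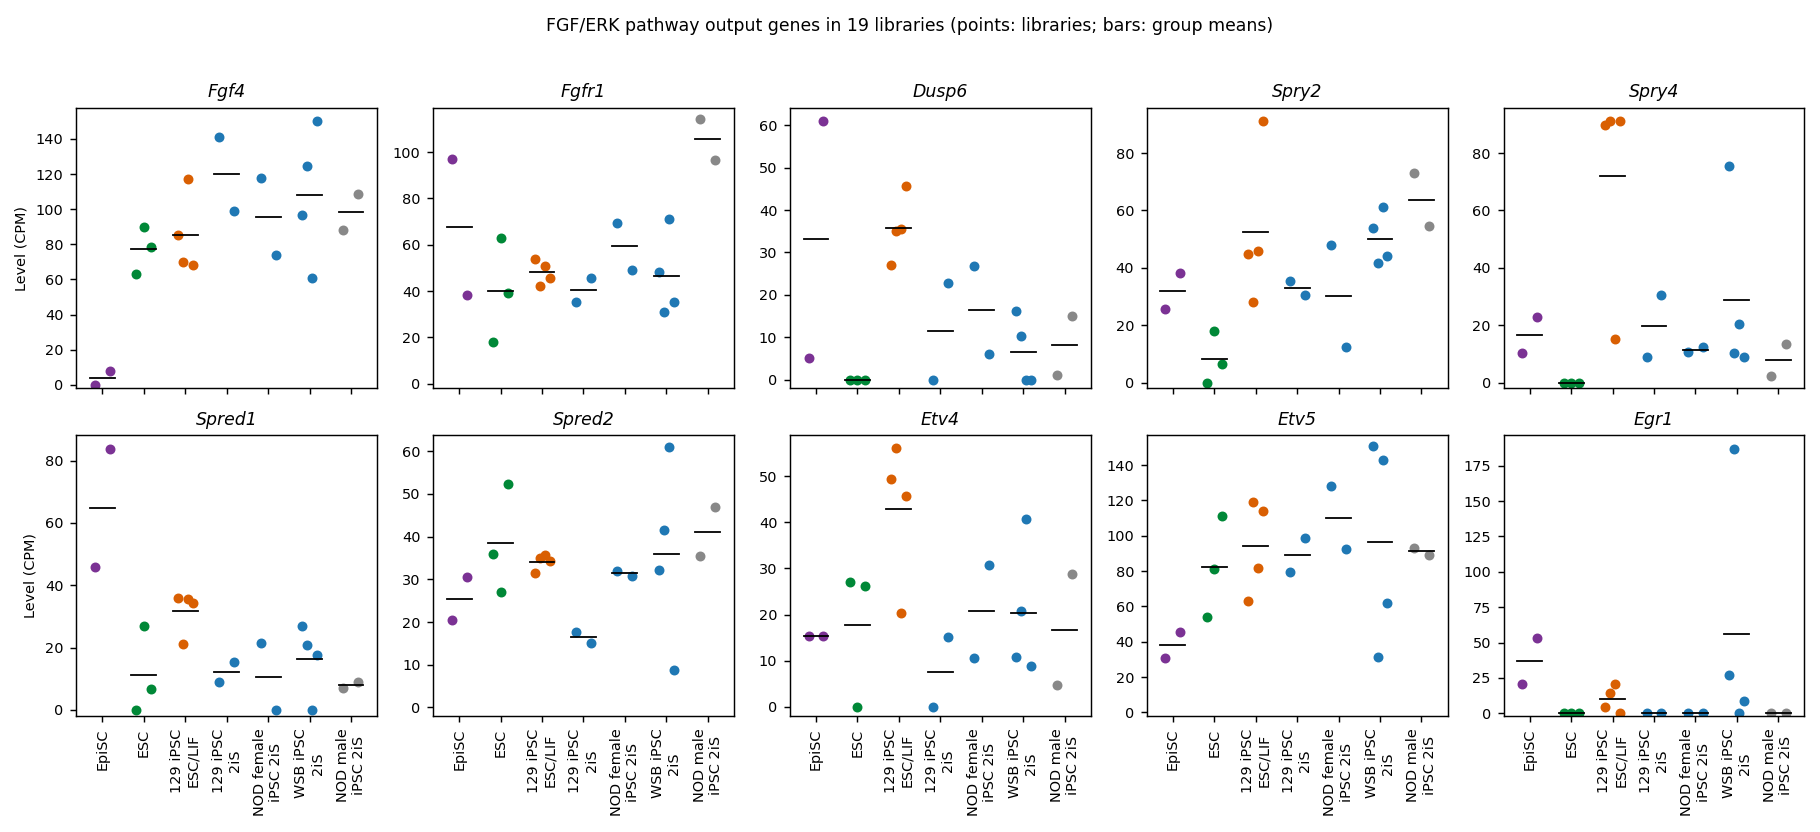
Levels of the 10 genes in CPM (linear axes, one scale per gene) in each of the 19 libraries, grouped by cell state, strain and medium, with points for libraries and bars for group means. Fgf4 is at 0 and 7.63 CPM in EpiSC and at 61.1 CPM or more elsewhere, Dusp6, Spry4 and Egr1 are at 0 in the 3 ESC libraries, and Spry4 is at 89.9 to 91.2 CPM in 3 of the 4 iPSC libraries in ESC/LIF.

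Etv5, an ETS-family transcription factor gene, was the other gene of the list to differ between iPSC and EpiSC. It was at 30.7 CPM in the NOD and 45.8 CPM in the 129 EpiSC library, against 31.2 to 151 CPM, with a median of 95.6, in the 12 iPSC libraries. The ranges touched through WSB clone 23 at 31.2 CPM, while the other 11 iPSC libraries lay above both EpiSC libraries. The log2 difference was 1.34 (SE 0.47, adjusted p = 0.0352 by edgeR). It was not called without the NOD EpiSC or without the 129 EpiSC library (adjusted p 0.114 to 0.265) or by DESeq2 (adjusted p = 0.0976). The ESC libraries were at 54.0 CPM in NOD, 81.0 in WSB and 111 in 129, all above both EpiSC libraries, with a log2 difference of EpiSC over ESC of -1.15 (SE 0.54, adjusted p = 0.162 by edgeR).

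Of the 10 genes, 4 had enough counts to be tested between cell states (Fgf4, Fgfr1, Spry4 and Etv5), and the other 6 were below the count filter. A gene can pass this filter through the group where it is high alone, as Fgf4 did outside EpiSC and Spry4 in iPSC. Being tested is thus not independent of the difference. Between iPSC and EpiSC 2 of the 4 passed, both higher in iPSC, where 28.3% of the 3986 genes tested passed and 11.2% passed as higher. The median log2 difference was 1.299 over the 4 genes and 0.10 over all genes tested. With no filter on low counts the median over all 10 was 0.46, 6 higher and 4 lower, against 0.07 over all genes. Between EpiSC and ESC 1 of the 4 passed (Fgf4), against 15.1% of all genes tested, with medians of -0.17 and -0.06. With no filter the median over the 10 was 1.24, 6 higher and 4 lower in EpiSC, against 0 over all genes. The values of Dusp6, Spry4 and Egr1 in it depend on the prior count, as ESC was at 0. Without regard to the filter, 7 of the 10 did not overlap between EpiSC and ESC (Fgf4 and Etv5 lower in EpiSC, and Dusp6, Spry2, Spry4, Spred1 and Egr1 higher), as did 23.4% of the 16808 genes with a read pair and 41.2% of the genes tested. With no filter on low counts edgeR called Fgf4, Dusp6 (adjusted p = 0.0327) and Egr1 (adjusted p = 0.0172) of the 10 between EpiSC and ESC, where 4.84% of all genes were called. DESeq2 called Fgf4 alone of the 10 there (adjusted p = 0.0218). It gave Egr1 an adjusted p of 0.402 and Dusp6 none. Between iPSC and ESC 0 of the 4 passed in edgeR's quasi-likelihood test, 1 with an unadjusted p under 0.05, against 6.22% of all genes tested, with medians of 0.31 and 0.05. With no filter the median over the 10 was 0.66, 9 higher and 1 lower in iPSC, against 0.00019 over all genes. The 3 comparisons share libraries.

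Of the 5 feedback inhibitor genes, Spry4 alone had the counts to be tested between cell states. Spry4, whose product limits receptor signaling upstream of RAF, was at a count of 0 in all 3 ESC libraries, which allows up to 8.00 CPM over the 3 together. It had at least 1 read pair in each of the 12 iPSC libraries, at 8.81 CPM at the lowest, 17.8 at the median and 91.2 at the highest. No iPSC library overlapped an ESC library, as for 5.9% of the genes tested, and on pooled counts (71 against 0) Spry4 was at least 5.11-fold higher in iPSC (at least 3.03-fold without the 129 ESC library). In edgeR's test the difference had an unadjusted p of 0.0033 and an adjusted p of 0.0519, just above the threshold of 0.05. It passed in DESeq2 (adjusted p = 0.0443, where 2.14% of genes were called), with no filter on low counts (adjusted p = 0.000547 by edgeR), with uniquely aligned pairs as the library size (adjusted p = 0.028 by edgeR, where 8.18% were called) and with male iPSC only (adjusted p = 0.0388 by edgeR). Without any 1 of the ESC libraries the adjusted p lay between 0.141 and 0.178. Without any 1 of the 12 iPSC libraries it lay between 0.046 and 0.0704, under the threshold in 5 cases (NOD clones 7 and 52, WSB clones 23 and 28 and 129 clone 1 in 2iS). In EpiSC Spry4 was at 10.2 CPM in NOD and 22.9 CPM in 129. Its log2 difference of EpiSC over ESC was 4.27 (SE 2.09, adjusted p = 0.181 by edgeR). That is close in size to the difference of Fgf4, but depends on the prior count.

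Dusp6, the gene of an ERK-specific phosphatase, was also at 0 in the 3 ESC libraries. It was at 5.11 CPM in the NOD and 61.0 CPM in the 129 EpiSC library, and between 0 and 45.6 CPM, with a median of 19.5, in the 12 iPSC libraries, 3 of them at 0. The iPSC therefore overlapped the ESC, and pooled counts put Dusp6 at least 2.52-fold higher in iPSC (35 against 0) and at least 3.44-fold higher in EpiSC (9 against 0). Without the 129 ESC library these limits were 1.49 and 2.04. Of the 9 read pairs in EpiSC 8 came from the 129 line, so without it 1 read pair remained and no limit could be given, and without the NOD line the limit was 7.62. Spry2, a Sprouty gene like Spry4, was at 0, 18 and 6.55 CPM in the NOD, WSB and 129 ESC libraries, at 25.5 and 38.1 CPM in the NOD and 129 EpiSC libraries and between 12.3 and 91.2 CPM in iPSC. Its pooled ratio of iPSC to ESC was 5.39 (95% counting interval 1.78 to 26.7) on 75 against 3 read pairs, 2 of them in the WSB ESC library, without which it was 11.4 (1.98 to 456). With no filter on low counts, edgeR called Spry4, Dusp6 (adjusted p = 0.0452) and Spry2 (adjusted p = 0.0484) of the 10 genes higher in iPSC than in ESC, where 3.57% of 16808 genes were called, while DESeq2 called Spry4 alone of the 10.

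The ESC and the iPSC in 2iS both had MEK inhibitor, and they were set side by side on pooled counts. Over the 8 iPSC libraries in 2iS without the NOD males, Spry4 had 27 read pairs and was at least 3.10-fold higher than in ESC, and Dusp6 had 13 and was at least 1.49-fold higher. Of the 27 read pairs of Spry4, 14 came from WSB clone 12, and the limit was 1.80 without that library and 1.84 without the 129 ESC library. That of Dusp6 was 0.885 without the 129 ESC library, so a higher level in iPSC was no longer shown. Spry2, at 44 against 3 read pairs, had a ratio of 5.05 (95% counting interval 1.62 to 25.4), and of 10.7 (1.82 to 431) without the WSB ESC library. With these 8 alone, Spry4 was below the count filter and was not tested.

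Feeder fibroblast markers moved with the same contrast. The 18 markers summed to 1017 to 1835 CPM in the ESC libraries, 81.7 to 496 CPM in the EpiSC libraries and 0 to 97.2 CPM in the 12 iPSC libraries. In ESC 17 of the 18 had counts and Dcn was at 0, and the 5 markers tested were all lower in iPSC than in ESC by edgeR. Of the 10 pathway genes Dusp6, Spry4 and Egr1 were at 0 in the ESC libraries, where these markers were highest. Fewer cells of a type and less RNA per cell cannot be told apart in such bulk samples, and the part of feeder RNA, source laboratory and passage in the differences from ESC was not tested.

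The SPRED genes, whose products hold back RAF activation, were both below the count filter. Spred1 was at 46.0 CPM in the NOD and 83.9 CPM in the 129 EpiSC library, above all 12 iPSC libraries (0 to 36.0 CPM) and above the NOD, WSB and 129 ESC libraries (0, 27.0 and 6.55 CPM). With no filter the log2 difference of Spred1 of iPSC over EpiSC was -1.50 (SE 0.59, adjusted p = 0.0769 by edgeR). Its pooled ratio of EpiSC to ESC was 5.73 (95% counting interval 1.92 to 23.1), and 16.14 (2.58 to 669) without the WSB ESC library. Spred2 overlapped among the states, at 20.4 and 30.5 CPM in EpiSC, 27.0 to 52.4 CPM in ESC and 8.83 to 61.1 CPM in iPSC, and its pooled ratio of iPSC to EpiSC of 1.27 had a counting interval of 0.60 to 3.09.

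Etv4, the close relative of Etv5, was at 15.3 CPM in both EpiSC libraries, at 0 to 27.0 CPM in ESC and at 0 to 56.0 CPM in iPSC, with overlap among all 3 states. Egr1, an immediate-early zinc finger gene, was at 20.4 and 53.4 CPM in the NOD and 129 EpiSC libraries and at 0 in the 3 ESC libraries, at least 4.21-fold higher in EpiSC on pooled counts. Without the NOD or the 129 EpiSC library this limit was 6.67 or 2.55, and without the 129 ESC library 2.49. In iPSC it was at 0 in 6 of 12 libraries, and its spread between the 12 was 3.75 times that expected from counting alone. The same quotient was 2.16 for Spry4 and between 0.66 and 1.35 for the other 8 genes.

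**Figure D2:**
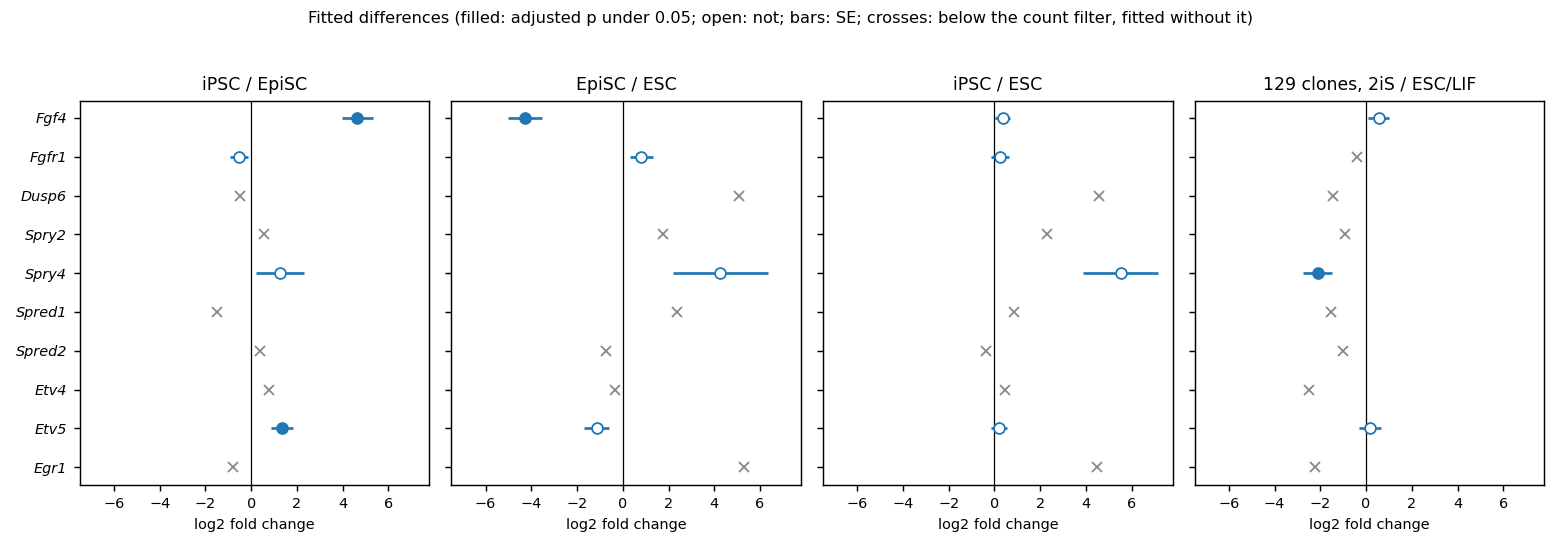
Fitted log2 fold changes for the 10 genes in 4 comparisons. Circles are genes tested by edgeR with bars for the SE, filled where the adjusted p is under 0.05, and crosses are genes below the count filter, fitted without it. Values depend on the prior count where a group has no read pairs (against ESC the crosses of Dusp6 and Egr1 and the circles of Spry4, and in the clones the cross of Egr1). Fgf4 lies at 4.65 and -4.30 in the comparisons with EpiSC, and Spry4 at -2.12 in the clones moved to 2iS, in a fit without pairing by clone.

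Per kilobase of annotated exon, Fgf4 had the highest mean level of the list over the 12 iPSC and over the ESC. In the 12 iPSC the level per kilobase was 31.4 ± 9.30 CPM for Fgf4, 23.6 ± 8.70 for Etv5 and 21.4 ± 9.32 for Spry2 (mean ± SD, n = 12), and these 3 lay within each other's spread. Spry2 stood above Etv5 in the WSB iPSC, the 129 iPSC in ESC/LIF and the NOD males, and above Fgf4 in the 2 male 129 clones in ESC/LIF (32.6 against 24.1 CPM per kilobase). The 12 libraries are 10 clones, since clones 1 and 17 each entered in both media. With 1 library per clone, leaving out those in 2iS, the calls between cell states were the same, Fgf4 and Etv5 against EpiSC (log2 differences 4.65 and 1.42, adjusted p 6.95e-05 and 0.0393 by edgeR) and none of the 4 against ESC (Spry4 adjusted p 0.0576). The other 7 followed at 2.92 to 8.30 CPM per kilobase, from Spred1 to Etv4. ESC had Fgf4 at 24.2 ± 4.24 and Etv5 at 20.02 ± 7.00 CPM per kilobase (n = 3), followed by Spred2 at 8.33 ± 2.79. In EpiSC the order of the means was headed by Spry2 at 15.3 ± 4.27 and ended with Fgf4 at 1.19 ± 1.69 CPM per kilobase (n = 2). Dusp6 came next to Spry2 at 10.6 ± 12.6, a spread that covers Spry2, so the top of this order is not settled.

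The 129 clones 1 and 17 were sequenced in both media, at later passages in 2iS. Of the 10 genes 6 were lower in 2iS in both clones (Dusp6, Spry2, Spry4, Spred1, Spred2 and Etv4), Fgf4 was higher in both, and Fgfr1, Etv5 and Egr1 were neither, counting levels within 1% as equal. Among the 13304 genes with a read pair in these 4 libraries, 22.9% were lower in both clones. That share includes genes with too few read pairs to be lower in both. No share was taken over genes with counts like those of the 10, so whether the 6 stand out was not tested. All 5 feedback inhibitor genes were among the 6, but most of them rest on few read pairs.

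Spry4 was at 89.9 CPM (20 read pairs) in clone 1 and 91.2 CPM (8 read pairs) in clone 17 in ESC/LIF. After the move to 2iS it was at 8.81 CPM (1 read pair) and 30.4 CPM (4 read pairs). Both clones were lower in 2iS and the groups did not overlap, as for 45.5% of the genes tested. The log2 difference was -2.12 (SE 0.64, adjusted p = 0.0144 by edgeR), making Spry4 the 1 gene that passed of the 3 tested (Fgf4, Spry4 and Etv5), where 8.89% of the 2160 genes tested passed and 5.79% passed as lower. This fit left out the pairing by clone. Spry4 entered this test only through its ESC/LIF libraries, where it was high. The other feedback inhibitor genes stayed below the filter. With the clone as a block the log2 difference was -2.19 and the adjusted p 0.0865, so the call was lost. It was also lost with no filter on low counts (adjusted p = 0.0682 by edgeR) and without any 1 of the 4 libraries, where Spry4 was tested in 3 of the 4 cases. The median of the 3 log2 differences was 0.16, against 0.01 over all genes tested. With no filter the median over the 10 was -1.23, 8 lower and 2 higher in 2iS, against -0.14 over all genes.

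Etv4 was below the count filter with 11 read pairs in clone 1 and 4 in clone 17 in ESC/LIF, against 0 and 2 in 2iS. On pooled counts its ratio of 2iS to ESC/LIF was 0.17 (95% counting interval 0.019 to 0.73), without clone 1 in 2iS 0.31 (0.035 to 1.35) and without clone 17 in 2iS at least 1.83-fold lower, and with no filter the adjusted p was 0.286 by edgeR. Dusp6 had 6 and 4 read pairs in ESC/LIF and 0 and 3 in 2iS, with a pooled ratio of 0.38 whose counting interval, 0.067 to 1.47, includes 1, and of 0.71 (0.13 to 2.75) without clone 1 in 2iS. The intervals of Spry2, Spred1 and Spred2 also include 1.

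Fgf4 stood at 85.4 CPM in clone 1 and 68.4 CPM in clone 17 in ESC/LIF, and at 141 and 98.8 CPM in 2iS. Its log2 difference of 0.55 (SE 0.47, adjusted p = 0.623 by edgeR) was within the error. Etv5 was at 63.0 and 114 CPM in ESC/LIF and at 79.3 and 98.8 CPM in 2iS, with a log2 difference of 0.16 (SE 0.49, adjusted p = 0.934 by edgeR). Whether these 2 differences differ from that of Spry4 was not tested. In the same fit Tfcp2l1, Klf4 and Tbx3 of the naive markers rose in 2iS, by 1.56, 1.37 and 1.34 on the log2 scale, among 5 of the 12 markers that were tested by edgeR, and DESeq2 called none of the 3.

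**Figure D3:**
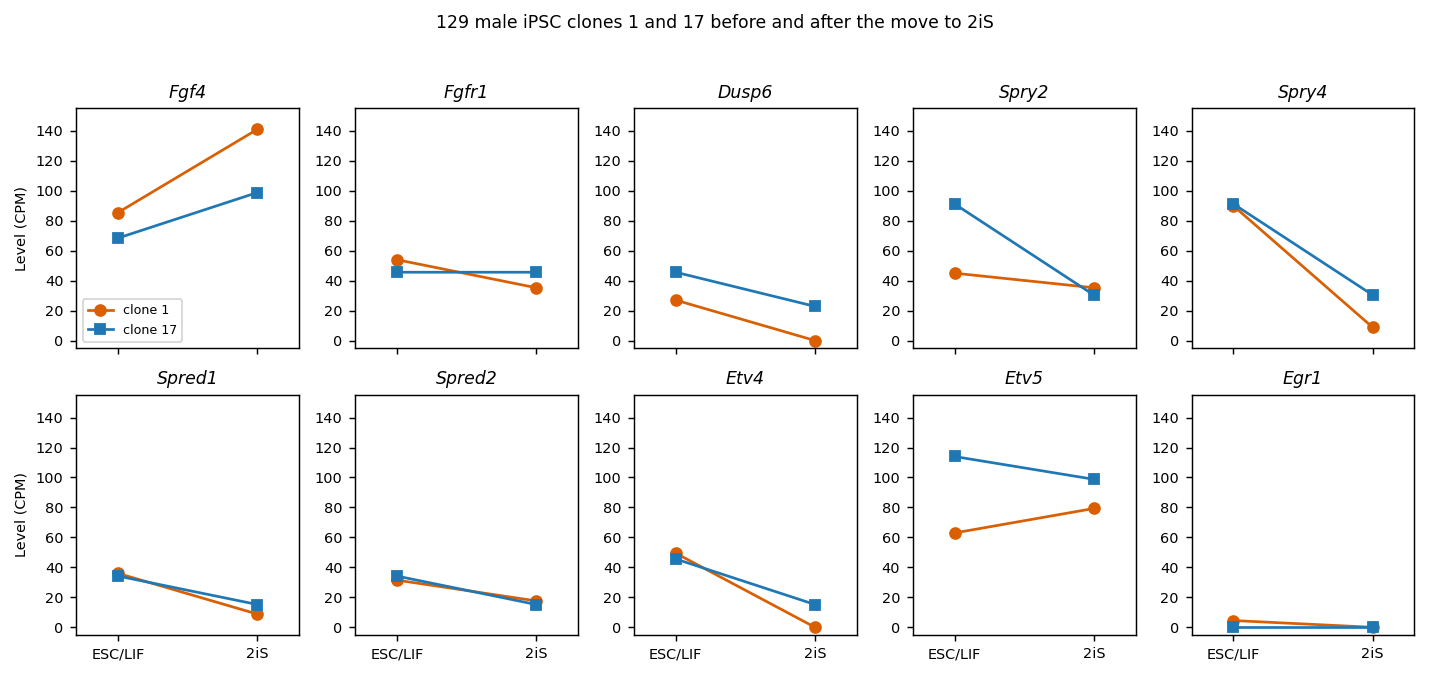
Levels in CPM (same linear axis in every panel) of the 10 genes in 129 male iPSC clones 1 and 17 in ESC/LIF and after the move to 2iS, with a line for each clone. Spry4 goes from 89.9 to 8.81 CPM in clone 1 and from 91.2 to 30.4 CPM in clone 17, and Fgf4 is higher in 2iS in both.

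Over all 12 iPSC, with the 2iS strains weighted equally, Spry4 was lower in 2iS. These 12 include the 4 libraries of clones 1 and 17, so this is not a separate test, and since the libraries in ESC/LIF are all 129, strain and medium are mixed in it. The 4 libraries in ESC/LIF were at 89.9, 91.2, 91.1 and 15.3 CPM in clones 1, 17, 5 and 8, and the 8 in 2iS at 8.81 CPM at the lowest, 11.5 at the median and 75.4 at the highest. The groups overlapped through clone 8 in ESC/LIF and through WSB clone 12 (75.4 CPM), WSB clone 25 (20.4 CPM) and 129 clone 17 (30.4 CPM) in 2iS. The log2 difference was -1.75 (SE 0.56, adjusted p = 0.0489 by edgeR), 1 of 3 genes tested, where 10% of 3388 genes passed and 6.52% passed as lower. Here too Spry4 passed the count filter mainly through ESC/LIF libraries, where it was high. It was not called by DESeq2 (adjusted p = 0.166), with uniquely aligned pairs as the library size (adjusted p = 0.0571 by edgeR), without the 129 clones moved to 2iS (adjusted p = 0.0587 by edgeR) or without any 1 of 9 of the 12 libraries. Without clone 8 the log2 difference was -2.12, without WSB clone 12 it was -2.18 and without 129 clone 17 in 2iS it was -2.13, and the call was kept. The median of the 3 log2 differences was 0.15, against -0.01 over all genes tested. With no filter the median over the 10 was -0.82, 8 lower and 2 higher in 2iS, against -0.11 over all genes.

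Dusp6 separated the 2 media in these 12 libraries by a narrow gap. It was at 27.0, 45.6, 35.0 and 35.6 CPM in the libraries in ESC/LIF and at 0 to 26.7 CPM, with a median of 8.28, in the 8 in 2iS. The groups did not overlap, as for 1.63% of the 15658 genes with a read pair and 4.22% of the genes that passed the count filter, which Dusp6 did not, although the gap between 26.7 and 27.0 CPM is less than the worth of 1 read pair. On pooled counts, 13 in 2iS against 22, the ratio was 0.35 (95% counting interval 0.16 to 0.73). The ratios of Spry4 at 0.37 (0.22 to 0.60, and a ratio of 0.21 without WSB clone 12), Etv4 at 0.40 (0.21 to 0.75) and Spred1 at 0.45 (0.22 to 0.91) also had counting intervals below 1, and those of Spry2, Spred2, Fgf4, Fgfr1, Etv5 and Egr1 did not. These intervals leave out the spread between lines. With no filter on low counts the adjusted p was 0.149 for Dusp6, 0.0962 for Etv4 and 0.316 for Spred1 by edgeR.

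Between strains in 2iS, 0 of the 3 genes tested passed in edgeR's test in either comparison, none with an unadjusted p under 0.05 and none by DESeq2. The background was 2.24% of 3388 genes for NOD against 129 and 4.04% for WSB against 129. The NOD clones were both female and the 129 clones both male, so strain and sex cannot be told apart between them. The WSB clones were of both sexes. Derivation medium and passage also differed from those of the 129 clones. Fgf4 was at 118 and 73.9 CPM in the NOD female clones 7 and 52, and at 96.9, 125, 61.1 and 150 CPM in the WSB clones 12, 23, 25 and 28. These values overlapped the 129 clones in 2iS at 141 and 98.8 CPM. The log2 difference of Fgf4 was -0.26 (SE 0.44) for NOD over 129 and -0.11 (SE 0.39) for WSB over 129. Etv5, at 31.2 to 151 CPM, had a spread in the WSB clones 2.12 times that of counting alone. The medians of the 3 log2 differences were -0.26 for NOD and 0.21 for WSB, against 0.00 and 0.02 over all genes tested. With no filter the medians over the 10 were 0.20 for NOD and 0.55 for WSB, against 0 over all genes in both.

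Egr1 differed among the WSB clones. It was at 26.9 CPM in clone 12, 187 CPM (18 read pairs) in clone 23, 0 in clone 25 and 8.83 CPM in clone 28, and at 0 in both 129 clones in 2iS and both NOD female clones. With no filter on low counts edgeR called it higher in WSB than in 129 (adjusted p = 0.0141), the 1 gene of the 10 to be called in that fit, where 1.23% of 15658 genes were. Of the 24 read pairs in WSB, 18 came from clone 23. Strain, sex, derivation medium and passage are mixed in this comparison as above. In the same clone Spry4 was at 10.4 CPM and Dusp6 at 10.4 CPM, each 1 read pair.

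The NOD male iPSC clones 3 and 35 were compared with the 10 iPSC libraries that leave out the 129 clones in 2iS. In CPM, Fgfr1 was at 114 and 96.8 in the NOD males and at 31.2 to 71.3 in the other 10, without overlap, as for 35.6% of the genes tested, and its log2 difference was 1.21 (SE 0.25, adjusted p = 0.000176 by edgeR). Spry4 was at 2.36 and 13.6 CPM in the males and at 8.83 to 91.2 CPM, median 17.8, in the others, so the groups overlapped, and its log2 difference was -1.88 (SE 0.67, adjusted p = 0.0175 by edgeR). Spry4 passed the count filter through the other libraries alone. These were 2 of the 6 genes tested, where 58.9% of 4784 genes passed, and the median over the 6 was 0.27, as over all genes tested. With no filter the median over the 10 genes was -0.17, 5 higher and 5 lower, against 0.35 over all genes. DESeq2 called neither (adjusted p = 0.0962 for Fgfr1 and 0.0941 for Spry4), and the call of Spry4 was lost without NOD male clone 3 (log2 difference -1.06) and without WSB clone 12 (-1.60).

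The values in the NOD males depend on the scale, and the share of aligned pairs on genes was higher in these libraries (5.59% and 5.62%) than in the others. Counted per 1e+06 uniquely aligned pairs, Fgf4 was at 7.42 and 9.35 in the males and at 0.91 to 2.75 in the other 10. On that scale 5 of the 6 genes tested were higher in the NOD males by edgeR (Fgf4 by 2.52, Fgfr1 by 3.60, Spry2 by 3.00, Spred2 by 2.80 and Etv5 by 2.50 on the log2 scale), where 84.4% of all genes passed, 81.4% as higher, and the median over all genes was 2.66. Spry4 turned to 0.46 (adjusted p = 0.533 by edgeR), below that median. Relative to the median of all genes Fgfr1 was higher and Spry4 lower on both scales. Egr1 was at 0 in both NOD males against 31 read pairs in the 10 others, at least 10.5-fold lower in CPM on pooled counts, with 18 of the 31 from WSB clone 23. Without clone 23 this limit was 4.69, and without NOD male clone 3 or 35 it was 4.58 or 5.88. Why these 2 libraries had more pairs on genes was not tested.

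**Figure D4:**
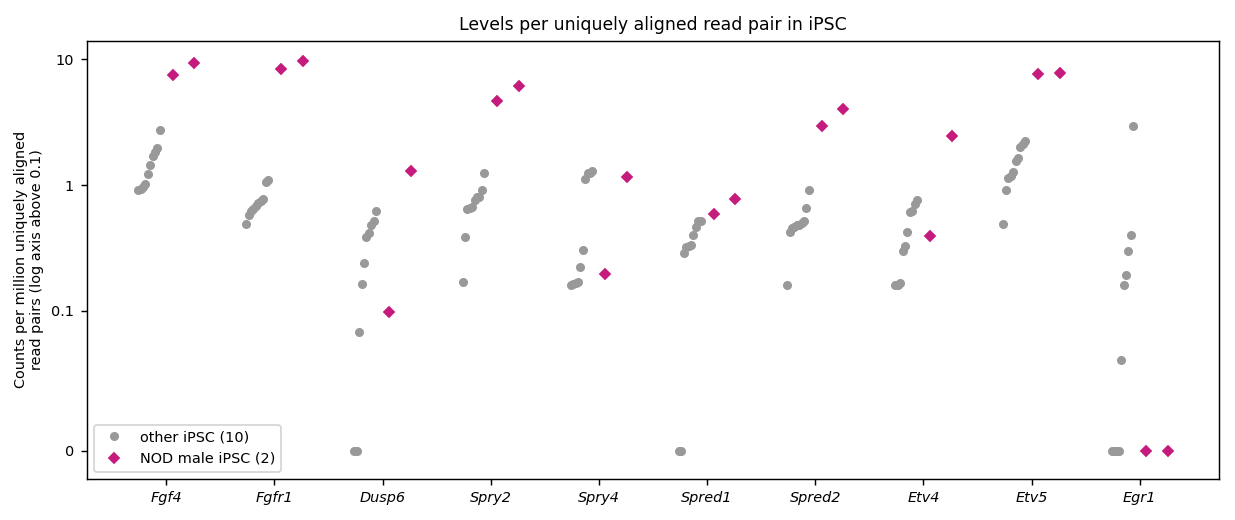
Counts of the 10 genes per 1e+06 uniquely aligned read pairs (linear up to 0.1, log above) in the 2 NOD male iPSC libraries, as diamonds, and in the 10 other iPSC libraries they were compared with, as circles. Fgf4, Fgfr1, Spry2, Spred1, Spred2 and Etv5 lie above all 10 others in both males, Spry4, Dusp6 and Etv4 overlap them, and Egr1 is at 0 in both males. On this scale 81.4% of all genes tested passed as higher in the males by edgeR. The share of all genes that lie above without overlap was not counted on it.

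The rest of the pathway was taken from fixed lists. Of 13 other FGF ligand and receptor genes, 0 had the counts to be tested in any comparison. Of 18 genes that carry the signal from receptor to ERK, 8 were tested between cell states, and the docking protein genes Gab1 and Frs3 passed, both higher in iPSC than in EpiSC (log2 differences 3.97 and 4.22) and lower in EpiSC than in ESC (-3.66 and -4.52). These 2 of 8 stand beside 28.3% of all genes tested in the first comparison and 15.1% in the second. Both have exons that overlap a gene on the opposite strand (Gm31105 and Frs3os), and the strand setting of the counting is not given in the sources used here, so their reads cannot be told apart from those of the partner. Between iPSC and ESC 0 of the 8 passed in edgeR's test (0 with an unadjusted p under 0.05), and between 2iS and ESC/LIF 0 of the 6 tested over the 12 iPSC (1 with an unadjusted p under 0.05). DESeq2 called 0 of the list in both.

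Of 14 other feedback inhibitors and negative regulators, 4 were tested between cell states. Errfi1, which restrains EGF receptor signaling, was the 1 of the 4 that passed, higher in iPSC than in EpiSC (log2 difference 2.05, SE 0.62, adjusted p = 0.0176 by edgeR), where 28.3% of all genes passed and 11.2% passed as higher. Over the 12 iPSC the phosphatase gene Dusp9, on chromosome X, was lower in 2iS. It was at 35.0 to 79.8 CPM in the 4 libraries in ESC/LIF, and in 2iS at 0 in both 129 clones, 6.16 and 26.7 CPM in the NOD clones and 10.8 to 106 CPM in the 4 WSB clones, so the groups overlapped. The fitted log2 difference of -2.88 (SE 0.76, adjusted p = 0.0169 by edgeR) is a mean over the 3 strains on the log scale and depends on the prior count through the 129 clones at 0, while the plain means were 25.1 ± 34.7 CPM (SD, n = 8) in 2iS and 63.5 ± 20.4 CPM (SD, n = 4) in ESC/LIF. It was 1 of 3 such genes tested there, where 10% of all genes passed.

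Of 19 other immediate-early and ETS-linked genes, 7 were tested between cell states, and 4 were lower in iPSC than in EpiSC, where 28.3% of all genes tested passed in either direction. They were the transcription factor genes Srf (-2.002), Fosl1 (-1.75) and Elk3 (-1.48) and the cyclin gene Ccnd1 (-1.21), with adjusted p of 0.00294, 0.0115, 0.044 and 0.00843 by edgeR. DESeq2 called 3 of the 4 and not Elk3 (adjusted p = 0.0694). The median of the 7 was -1.21 against 0.10 over all genes tested, while Etv5 of the 10 pathway genes was higher in iPSC. Exons of Fosl1, Elk3 and Ccnd1 overlap a gene on the opposite strand.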

How the data were processed

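RNA from 19 cell pellets was made into stranded, poly(A)-selected libraries (TruSeq Stranded mRNA) and sequenced in pairs. The authors trimmed reads with Trimmomatic, aligned them to GRCm38/mm10 with TopHat2 2.1.1 and counted them per gene with HTSeq in intersection-nonempty mode. The deposited values are raw counts of read pairs per gene, 1 file per library. The annotation and the strand setting are not given in the sources used here, so levels may be pairs from the strand opposite to the transcripts.

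Uniquely aligned pairs were taken as gene, no-feature and ambiguous counts together, and these special rows entered no test. The main test was edgeR's quasi-likelihood test (edgeR 4.0.16, R 4.3.3) with TMM scaling, the edgeR filter at a minimum count of 10, and Benjamini-Hochberg adjustment over all genes tested, called at an adjusted p under 0.05. The state comparisons shared 1 fit over 17 libraries, and the comparisons of medium and strain over the 12 iPSC another. The study's methods name DESeq2, used here (1.42.0) as an alternative. The SE is the size of the log2 difference over the square root of F. Counting intervals are exact binomial 95% intervals on pooled counts. For limits a group at 0 was set to 3 counts over the group, with the other group's count taken as exact. The fits were tested on simulated data.

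Clones 1 and 17 are the same lines in both media, so the libraries are paired by clone. The main test of the clones left this pairing out, and the clone as a block was an alternative. The correlation of same-clone deviations from the group means was 0.067, from 2 clones only. All 10 genes are named in the report, and of each other list at most the 4 genes called with the smallest adjusted p. The genes and lists were chosen with earlier results of these data known. Gene positions and exon lengths are from GENCODE M21 (GRCm38), promoter windows from RefSeq. The paper describes the fibroblasts of a strain as pooled from embryos of a litter. Nothing says that lines of 1 group came from separate embryos, so p-values measure the spread between these libraries only. Alternatives were DESeq2, its size factors in edgeR, no filter, uniquely aligned pairs as library size, the clone as a block, subsets of iPSC and leaving out each library. Leaving out each iPSC library between cell states, 1 library per clone, and pooled ratios without each library were added after seeing the data.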

Additional observations from a re-analysis of the deposited data

Results flagged for a closer look

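In 20 sets of 4 libraries (10 genes in the 129 iPSC in ESC/LIF and in the WSB iPSC in 2iS), 3 libraries stood far from the other 3 by Dixon's test, which chance alone does in about 1 of 20 sets. Egr1 was at 187 CPM in WSB clone 23, against 0 to 26.9 CPM in the other WSB clones. Spry4 was at 15.3 CPM in 129 female clone 8, against 89.9 to 91.2 CPM in the other clones in ESC/LIF. Spred1 was at 21 CPM in 129 female clone 5, against 34.2 to 36.0 CPM in the others, where 1 read pair is worth 4.497 to 11.4 CPM.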

How the results depend on the processing

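Low counts limit all of these results, since 6 of the 10 genes had too few read pairs for the state comparisons and 7 for those of medium. DESeq2 called 1 gene between iPSC and EpiSC, 1 between iPSC and ESC, 1 between EpiSC and ESC (Fgf4), 0 of the 2 genes it gave an adjusted p in the clones (Fgf4 and Etv5, not Spry4), and 0 in 2iS against ESC/LIF and in the NOD males. With no filter 3 genes were called between iPSC and ESC, 3 between EpiSC and ESC (Fgf4, Dusp6 and Egr1), 0 in the clones and 1 in WSB against 129. With aligned pairs as library size 1 was called between iPSC and ESC, 0 between media and 5 in the NOD males, and with male iPSC only 1 between iPSC and ESC. The replicate block left 0 called in the clones and 102 genes in all against 192 (DESeq2 39), and without the 129 clones moved to 2iS 0 were called between media. The cause of these changes was not tested. Fits with no filter hold more genes, and fits that leave out libraries hold fewer libraries.

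Leaving out each library of the groups compared, the genes called numbered 1 to 2 between iPSC and EpiSC, 0 to 1 between iPSC and ESC (Spry4), where leaving out each iPSC library was added after seeing the data, 1 between EpiSC and ESC, 0 in the clones, 0 to 1 between media, 0 in both strain comparisons and 1 to 3 in the NOD males. Fgf4 kept its call in both comparisons with EpiSC (3.57 to 6.86 and -6.50 to -3.21). Uncalled log2 differences changed sign for Fgfr1 (-0.071 to 0.65) and Etv5 (-0.036 to 0.51) between iPSC and ESC, for Etv5 in the clones (-0.34 to 0.49) and between media (-0.022 to 0.30), for Fgf4 (-0.63 to 0.020) and Spry4 (-1.31 to 0.39) in NOD against 129, for Fgf4 (-0.36 to 0.14), Spry4 (-0.56 to 1.88) and Etv5 (-0.15 to 0.47) in WSB against 129, and for Fgf4 (-0.056 to 0.25) and Etv5 (-0.0049 to 0.16) in the NOD males. With aligned pairs Fgf4 turned to 0.012 in WSB against 129 and Spry4 to 0.46 in the NOD males. In these Etv5 was -0.00056 by DESeq2, and with its size factors in edgeR Etv5 was -0.021 and Fgf4 -0.0084.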
